A study of Caenorhabditis elegans with 8 samples.

Results

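Replicates 1 and 2 of both labelled genotypes were compared with replicates 3 and 4 of both, 4 libraries against 4, so the 2 sets hold all 8 of the 8 libraries of the series. The division is not a labelled condition. The sets were chosen by measured values, namely the positions of the libraries on the first principal component of log2 CPM (CPM is the count relative to the library total after TMM scaling), and every gene took part in that component. Differences between the sets are therefore given as a description, with no test, and the fitted log2 difference always means replicates 3 and 4 less replicates 1 and 2, with the labelled genotype as a covariate.

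RNA from the whole body of *C. elegans* was enriched for polyadenylated transcripts and sequenced for 4 libraries labelled non-Tg, which are the Bristol strain N2, and for 4 labelled *smrd-1 Δ#1*, a CRISPR-Cas9 deletion of exons 1 to 6 of *smrd-1*, the homolog of the chromatin remodeler SMARCAD1. *smrd-1 Δ#1* is a single edited line, neither genotype carried a tau transgene, all animals were kept at 20 °C on *E. coli* OP50, and no source says whether the replicates were separate cultures. The extraction notes name the L4 larva, whereas the design text speaks of adults, and no time of collection is given for any replicate. Neither the labels nor the methods tie a replicate number to a day, a plate or a batch, so such causes and the division cannot be told apart.

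The L4 larva is the last larval stage of the nematode. During it the hypodermis prepares the final molt, in which a new cuticle of collagens, cuticlins and zona pellucida domain proteins is assembled under the old one, and many of these genes are transcribed in successive waves within each larval stage. The hermaphrodite germline makes sperm during L4 and turns to oocytes as the animal becomes adult, and the intestine then makes the yolk proteins. In whole-body RNA, a change in the number of cells of a type and a change in RNA per cell cannot be told apart.

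Total counts lay between 74704022 and 78008833 per library, and 25295 genes had at least 1 count, of which 16808 passed the expression filter. The most abundant gene took 4.27% to 7.47% of the counts, and the mitochondrial genes took 0.655% to 1.01%. Ribosomal RNA genes together took 4.29% to 7.50%, in each library just above the share of the most abundant gene. TMM factors were 0.953 to 0.980 in replicates 1 and 2 and 1.02 to 1.04 in replicates 3 and 4, so the sets did not overlap in this measure of composition either, and its part in the differences was not tested. Markers of muscle, intestine and neurons were present in each library. Of 10 early embryo markers 3 passed the expression filter, and these 3 summed to at most 0.971 CPM.

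The targeted gene went against its label. *smrd-1* measured 48.9, 42.1, 50.3 and 50.3 CPM in non-Tg replicates 1 to 4 and 87.6, 85.6, 88.3 and 78.8 CPM in the libraries labelled *smrd-1 Δ#1*. The gene count includes the exons outside the deletion, and each direction by genotype given here holds only if the labels do. Its fitted log2 difference between the sets was 0.05, and the sets overlapped.

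On the first principal component, which held 50.0% of the variance, the libraries of replicates 1 and 2 lay at -50.7 and -69.7 (non-Tg) and at -24.8 and -9.18 (labelled *smrd-1 Δ#1*). Those of replicates 3 and 4 lay at 24.7 and 16.7 (non-Tg) and at 61.2 and 51.7 (labelled *smrd-1 Δ#1*). The nearest libraries on either side of the division were *smrd-1 Δ#1* replicate 2, at -9.18, and non-Tg replicate 4, at 16.7. Within each set the libraries labelled *smrd-1 Δ#1* lay further in the direction of replicates 3 and 4 than the non-Tg libraries, so the position on this component moved with the label as well as with the set. The second component held 14.9% of the variance, and on it both non-Tg libraries of replicates 3 and 4 lay apart from the other 6.

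**Figure D1:**
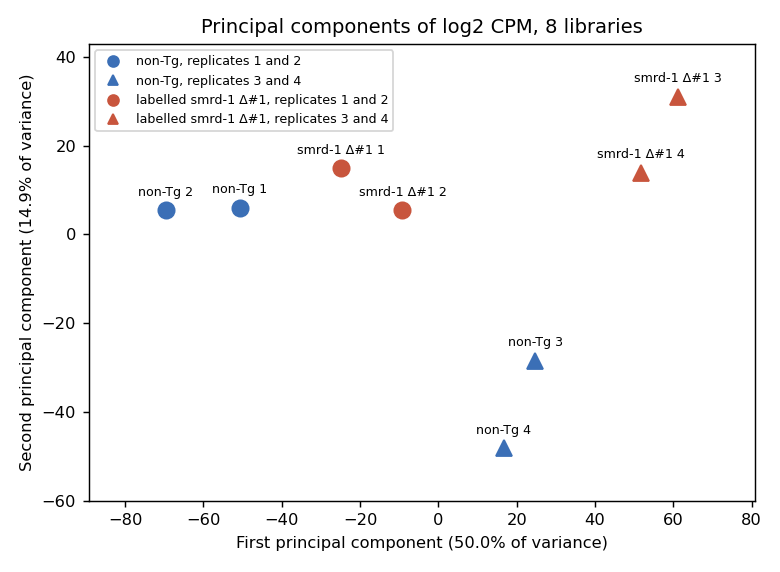
First against second principal component of log2 CPM, with the share of variance on each axis; each point is 1 library, colored by labelled genotype, with circles for replicates 1 and 2 and triangles for replicates 3 and 4. The 4 circles lie between -69.7 and -9.18 on the first component and the 4 triangles between 16.7 and 61.2.

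The set of a library was recorded in a large share of the transcriptome. Of the 16808 genes tested, 2747 (16.3%) had all 4 libraries of replicates 3 and 4 above all 4 of replicates 1 and 2, and 2814 (16.7%) had them all below. A gene was counted as parted where the sets did not overlap and the fitted log2 difference was at least 1 in size. By that limit 1149 genes (6.84%) were higher in replicates 3 and 4 and 342 (2.03%) were lower. Parted genes that were higher were mostly of low level, with a median log2 CPM of 1.94, and 279 of them reached a mean log2 CPM of 3. Parted genes that were lower had a median of 2.33, and 137 of them reached that level, but their differences ran further, to -5.16. Without *smrd-1 Δ#1* replicate 2, 523 genes in place of 342 were parted lower. The median log2 difference of all genes tested was -0.004, a value that TMM scaling places near 0.

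Position in the genome differed between the groups of parted genes. Chromosome X carried 14.3% of the genes tested, 4.44% of the parted genes that were higher in replicates 3 and 4 (51 genes) and 20.8% of those that were lower (71 genes). Chromosome IV carried 2857 of the genes tested and 299 of the higher group (26.0%), and chromosome V carried 20.8% of the genes tested and 33.9% of the lower group. The higher group was shorter in summed exon length, with a median of 945 bases beside 1297 for all genes tested and 1178.5 for the lower group. Pseudogenes numbered 84 in the higher group and 12 in the lower, of 705 tested.

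In the paragraphs that follow, the 4 values of a set are given in the order non-Tg, non-Tg, labelled *smrd-1 Δ#1*, labelled *smrd-1 Δ#1*, with the lower replicate number first.

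Among parted genes of mean log2 CPM 3 or more, cuticle genes led those that were lower in replicates 3 and 4. Of the 10 with the lowest log2 differences, 5 were *col* collagens, and *dpy-6* and *fbn-1* of the apical matrix were among the others. *col-41* (X:15175032-15176481, WBcel235) measured 111, 378, 121 and 37.7 CPM in replicates 1 and 2 and 6.41, 5.39, 1.75 and 3.46 CPM in replicates 3 and 4, a log2 difference of -5.16. Non-Tg replicate 2 was highest and *smrd-1 Δ#1* replicate 2 lowest within the first set, and that lowest value was still above all 4 values of the second set. The abundant collagen *col-166* (X:6280016-6280921) measured 2607, 3156, 1627 and 1011 CPM against 398, 435, 237 and 292 CPM, a log2 difference of -2.55. *col-169*, which lies near *col-166* on X (X:6329160-6330062), measured 792, 1060.2, 525 and 351 CPM against 157, 172, 64.1 and 77.2 CPM. Within each set both collagens were higher in the non-Tg libraries, and the sets did not overlap in either.

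The apical matrix genes *dpy-6* and *fbn-1*, the most different of their list, were also higher in non-Tg within each set. *dpy-6* (X:8450381-8455640), which encodes a mucin-like protein needed for body shape, measured 205, 174, 137 and 106 CPM in replicates 1 and 2 and 41.7, 48.4, 6.02 and 8.79 CPM in replicates 3 and 4, a log2 difference of -3.03. *fbn-1* (III:7625386-7641078), a fibrillin-like matrix protein that protects the epidermis and pharynx from mechanical stress, measured 578.6, 475.5, 421.3 and 330.5 CPM against 166.5, 193.9, 14.74 and 32.45 CPM, a log2 difference of -2.76. Each gene was lowest in the libraries labelled *smrd-1 Δ#1* of the second set. The hedgehog-related gene *grd-13* measured 63.03, 90.32, 39.09 and 22.20 CPM against 7.999, 8.427, 6.139 and 5.650 CPM. Also in this group of 10 were *dpy-1* (log2 difference -3.51), *col-54* (-3.14), *T01D3.3* (-2.42) and *col-176* (-2.32).

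Other cuticle genes were higher in replicates 3 and 4. *rol-1*, named for the rolling movement of its mutants (II:12172573-12176069), measured 245, 226, 412 and 535 CPM in replicates 1 and 2 and 878, 966, 1012 and 1174 CPM in replicates 3 and 4, a log2 difference of 1.59. The collagen *col-63* (I:8243694-8244963) measured 229.5, 202, 422 and 531 CPM against 911, 1036, 1064 and 1285 CPM, a log2 difference of 1.74. In both genes the libraries of the first set were lower in non-Tg, while those of the second set lay close together. *col-175* and *col-49* had log2 differences of 1.51 and 1.56, with the same order within the first set. *mlt-10*, a nematode-specific gene needed for molting, measured 98.3, 110.4, 218 and 259.8 CPM against 362, 444, 304 and 367 CPM, a log2 difference of 1.22. It was the only parted gene of the 26 molting genes that was higher.

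The 10 parted genes with the highest log2 differences at this level also held genes outside the cuticle. *srlf-19* had the highest, at 2.18, with 1.64, 2.98, 3.69 and 4.71 CPM in replicates 1 and 2 and 12.67, 16.09, 13.02 and 15.06 CPM in replicates 3 and 4. *fat-5*, a fatty acid desaturase that acts on palmitic acid, measured 3.31, 3.37, 6.77 and 8.54 CPM against 9.23, 8.79, 21.4 and 22.4 CPM. Its log2 difference was 1.47, and it was also higher in the libraries labelled *smrd-1 Δ#1* within each set (log2 difference by genotype 1.24, edgeR adjusted p = 0.0023, and 0.040 when blocked on the replicate number). The first of these p-values may be too small, since the set used as covariate was chosen by the values. The other members were *dao-4* (1.91), *C04G6.2* (1.51), the C-type lectin *clec-47* (1.49) and *dos-2* (1.47), a co-ligand of the Notch receptors.

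**Figure D2:**
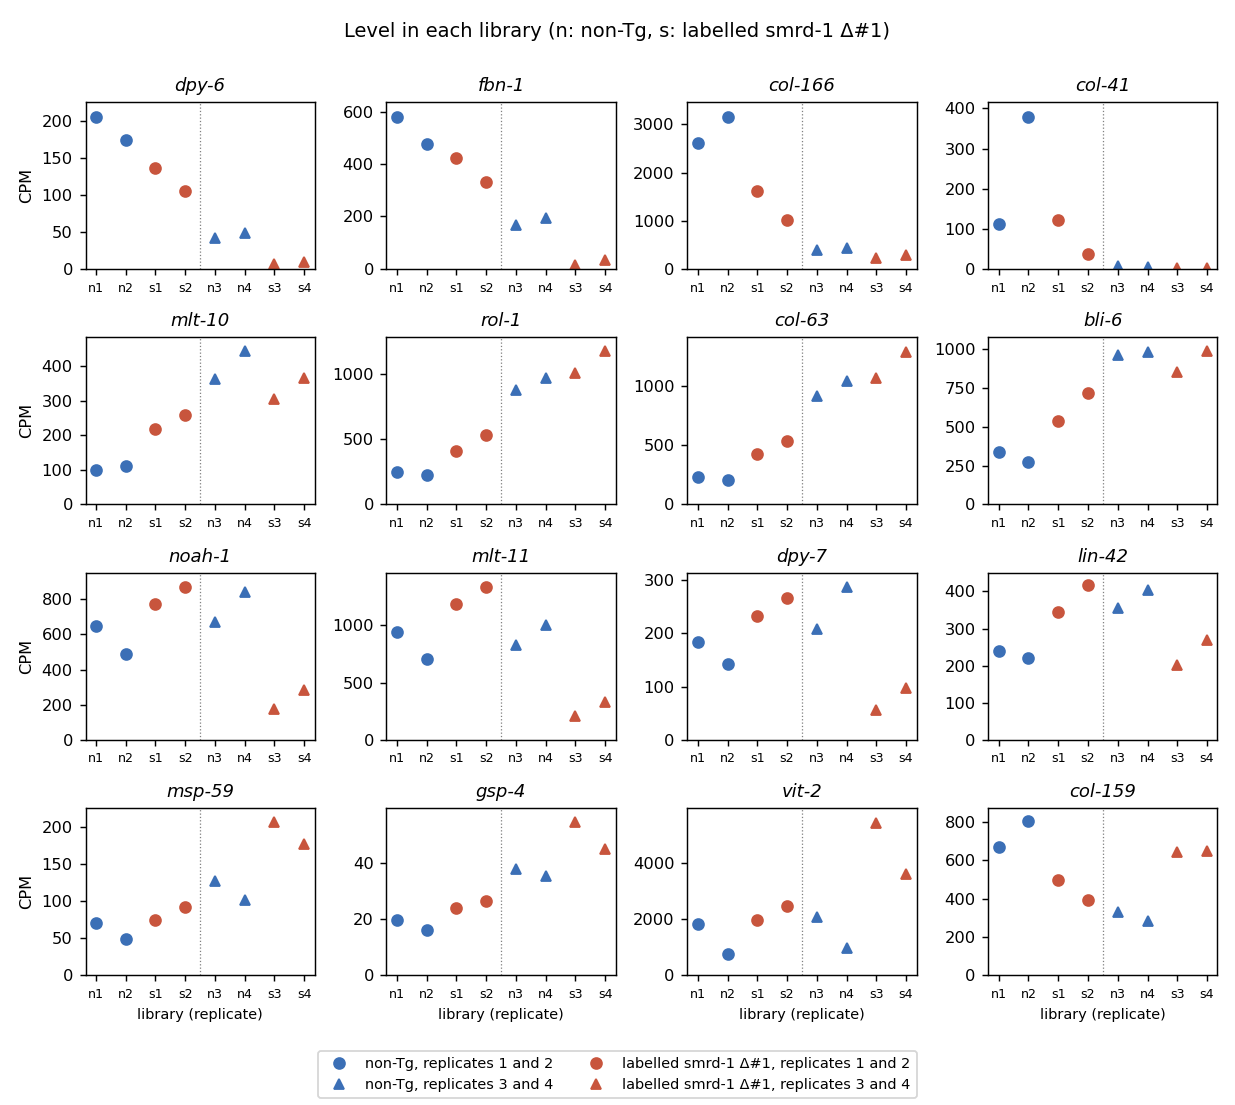
CPM of 16 genes in each library, with linear axes from 0; n is non-Tg and s is labelled *smrd-1 Δ#1*, each followed by the replicate number, and the dotted line parts replicates 1 and 2 from replicates 3 and 4. In the first 8 panels and in *msp-59* and *gsp-4* the 2 sets do not overlap, while *noah-1*, *mlt-11* and *dpy-7* are lowest in s3 and s4.

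Counted over the whole family, the *col* collagens were parted in both directions. Of 156 genes 130 were tested, of which 15 were parted higher and 19 lower, beside 6.84% and 2.03% of all genes tested. Their log2 differences ran from -5.16 to 1.74 with a median of 0.26. The summed level of the 130 genes tested was 38594, 44918, 35179 and 33465 CPM in replicates 1 and 2 and 35145, 30891, 53281 and 50287 CPM in replicates 3 and 4. The sets overlapped in this sum, and both libraries labelled *smrd-1 Δ#1* of replicates 3 and 4 stood above the other 6. Without non-Tg replicate 4 the count of parted higher collagens was 29, and without non-Tg replicate 1 it was 10.

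Other families of the cuticle and epidermis are read against the same 6.84% higher and 2.03% lower over all genes tested. Among 33 cuticlin and cuticlin-like genes tested, 1 was parted higher (*cutl-15*, log2 difference 1.03) and 6 were parted lower, of which *cutl-3* had the lowest value, -1.86. Of 62 *abu* and *pqn* genes, which encode glutamine- and asparagine-rich proteins, 1 was parted higher (*abu-13*) and 6 lower, with *pqn-94* at -1.88. Of 47 hedgehog-related genes 4 were parted higher, near the share over all genes, and 3 lower. Among 30 astacin metalloprotease genes, 3 were parted lower and none higher. Without *smrd-1 Δ#1* replicate 2 the counts were 9 higher and 7 lower for the hedgehog-related genes, 4 and 12 for the *abu* and *pqn* genes, and 0 and 7 for the astacin genes. Without *smrd-1 Δ#1* replicate 3 they were 10 and 5 for the hedgehog-related genes and 3 and 10 for the *abu* and *pqn* genes, and leaving out each library in turn gave 0 to 4 cuticlins parted higher.

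Of the 26 molting and apical matrix genes 1 was parted higher and 3 lower (*dpy-6*, *fbn-1* and *let-653*), beside 6.84% and 2.03% of all genes tested. Their median log2 difference was -0.12, and 11 of them were above 0. Among the 15 heterochronic and molting clock regulators, which time the larval stages, 1 was parted higher (*bed-3*), a share like that over all genes, and 2 lower (*lin-46* and *nhr-85*), with 0 or 1 higher and 2 to 4 lower when a library was left out. *nhr-23*, a nuclear receptor that drives molting gene expression, measured 84.7, 75.1, 73.1 and 72.8 CPM in replicates 1 and 2 and 57.7, 62.3, 45.4 and 46.4 CPM in replicates 3 and 4, without overlap and with a log2 difference of -0.54. The nuclear receptor gene *nhr-85* measured 10.7, 15.3, 9.78 and 7.46 CPM against 4.10, 4.25, 3.76 and 4.07 CPM. The median log2 difference of the 15 regulators was -0.63.

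Genes of sperm were higher in replicates 3 and 4. The major sperm proteins, the cytoskeletal proteins of the nematode's crawling sperm, had 31 of 31 genes tested with a log2 difference above 0, from 0.61 to 1.14 with a median of 0.99. In 27 of the 31 the sets did not overlap and 10 were parted higher, beside 16.3% and 6.84% of all genes tested. Their summed level was 1158, 857, 1126 and 1332 CPM in replicates 1 and 2 and 1925, 1547, 2951 and 2469 CPM in replicates 3 and 4. Many of these genes are near copies of each other, and reads that mapped to several places were not counted, so the values of single members are uncertain.

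Since the median of the major sperm proteins lay at the limit of 1, the count of 10 moved with single libraries. It was 22, 3, 10 and 23 without non-Tg replicates 1, 2, 3 and 4, and 2, 12, 3 and 17 without *smrd-1 Δ#1* replicates 1, 2, 3 and 4. The lowest of these counts lay near the share parted higher over all genes tested, 6.84% with all 8 libraries. *msp-59* (IV:5312728-5313111), among the 3 most abundant, measured 71.0, 49.0, 74.6 and 92.8 CPM in replicates 1 and 2 and 128, 102, 207 and 177 CPM in replicates 3 and 4. The second set was higher throughout, and within it the libraries labelled *smrd-1 Δ#1* were higher than non-Tg.

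The other sperm lists ran the same way. All 17 small sperm-specific protein genes were above 0, with a median of 0.95. Of these 12 did not overlap and 6 were parted higher, beside 16.3% and 6.84% of all genes tested, and the 6 became 4 to 10 when a library was left out. *ssq-2* measured 65.8, 52.4, 75.6 and 81.0 CPM against 108, 86.3, 162 and 131 CPM. Of 30 *spe* and *fer* genes, known from mutants with defective sperm, 10 were parted higher and none lower, and the sets did not overlap in 26 that were higher and 1 that was lower, beside 16.3% and 16.7% of all genes. *spe-9*, a sperm surface protein needed at fertilization, measured 2.27, 2.81, 3.05 and 2.50 CPM against 5.48, 4.47, 5.97 and 5.15 CPM. *gsp-3* and *gsp-4*, sperm-specific protein phosphatases, had log2 differences of 0.96 and 1.01.

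Genes that act earlier in the making of sperm differed among themselves. *spe-44*, a transcriptional regulator of spermatogenesis, had a log2 difference of 0.35, and *elt-1*, a GATA factor, one of -0.07, both with overlap. *fog-1* had one of -0.79 without overlap. *fog-3*, which commits germ cells to the sperm fate, measured 11.8, 17.3, 14.6 and 12.7 CPM in replicates 1 and 2 and 8.10, 10.1, 5.81 and 6.17 CPM in replicates 3 and 4, a log2 difference of -0.93 without overlap. *cpb-1*, a translational regulator needed for spermatogenesis, was lower by a log2 difference of -0.21, also without overlap.

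Oocyte, eggshell and yolk genes were higher in median but overlapped. The 15 oocyte genes had a median log2 difference of 0.62, with 14 above 0. In none of them did the sets part without overlap, beside 16.3% higher without overlap over all genes tested. Their summed level was 1079, 781, 1046 and 1255 CPM in replicates 1 and 2 and 1413, 924, 2242 and 1688 CPM in replicates 3 and 4, so non-Tg replicate 4 lay within the range of the first set. *rme-2*, the yolk receptor of the oocyte, measured 91.59, 51.85, 82.59 and 112.5 CPM against 125.5, 63.29, 192.1 and 137.3 CPM. *oma-2*, an RNA-binding protein of maturing oocytes, measured 34.15, 22.51, 37.59 and 49.63 CPM against 53.63, 29.68, 103.7 and 81.84 CPM. The 14 eggshell and egg activation genes had a median of 0.68, and none was parted. In lists of this size that is near the 6.84% parted higher over all genes tested. Some oocyte and some eggshell genes were parted higher without non-Tg replicate 4.

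The 6 vitellogenins, the yolk proteins, ranged widely within each set. Their summed level was 5639, 2249, 6583 and 8549 CPM in replicates 1 and 2 and 6596, 3131, 18352 and 12312 CPM in replicates 3 and 4. Non-Tg replicates 2 and 4 were the lowest of the 8 libraries, 1 in each set, and *smrd-1 Δ#1* replicates 3 and 4 were the highest. The median log2 difference between the sets was 0.83, and no member was without overlap, beside 16.3% higher and 16.7% lower over all genes tested. With the set as a covariate, *vit-3* and *vit-4* passed the test for genotype, with log2 differences of 1.87 and 1.92 (edgeR adjusted p = 0.037 and 0.040). With a set chosen by the values, these p-values may be too small. Blocking on the replicate number gave adjusted p-values of 0.088 and 0.089, and each of the 2 genes kept its call in 1 of 8 fits that left out a library. Of the 20 genes of germ cell maintenance and meiosis, 6 were higher without overlap and none was parted higher, beside 16.3% and 6.84% of all genes tested. None was parted lower, and their median was 0.16.

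Markers of muscle, neurons and intestine were mostly lower in replicates 3 and 4. Not all lists of somatic genes were lower, since the body-shape collagens and the hedgehog-related genes had medians of 0.52 and 0.49. All 13 muscle markers had log2 differences below 0, with a median of -0.43, and 12 did so without overlap, beside 16.7% of all genes tested. *unc-54*, the main myosin heavy chain of body wall muscle, measured 6181, 6572, 6537 and 5916 CPM against 4172, 3903, 3193 and 3005 CPM, a log2 difference of -0.83. The pharyngeal myosins *myo-2* and *myo-1* passed the limit for parted genes, at -1.51 and -1.06. *myo-2* measured 301, 462, 383 and 289 CPM against 147, 127, 121 and 111 CPM. All 15 neuron markers were below 0, with a median of -0.40, and 10 did not overlap, whereas *snb-1*, the synaptobrevin of synaptic vesicles, lay between 114 and 119.6 CPM in each library.

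Of 12 intestine markers 7 were lower without overlap, beside 16.7% of all genes tested, with a median of -0.38. The other members overlapped, and 3 were above 0, with *mtl-2*, a metallothionein, highest at 0.43. *act-5*, the actin of the intestinal microvilli and the member with the lowest value, measured 1877, 1779, 1481 and 1535 CPM against 983, 946, 769 and 837 CPM. Ribosomal protein genes had a smaller median of -0.21, with 53 of 76 lower without overlap, and *rps-2* was lowest at -0.73. The list had 10 genes above 0, and *rpl-42*, at a low level, was parted higher at 1.10. Their summed level was 132152, 141595, 132784 and 134626 CPM against 120995, 120132, 110720.0 and 116772 CPM. CPM are shares of a library, and the part of library composition in these lower values was not tested.

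**Figure D3:**
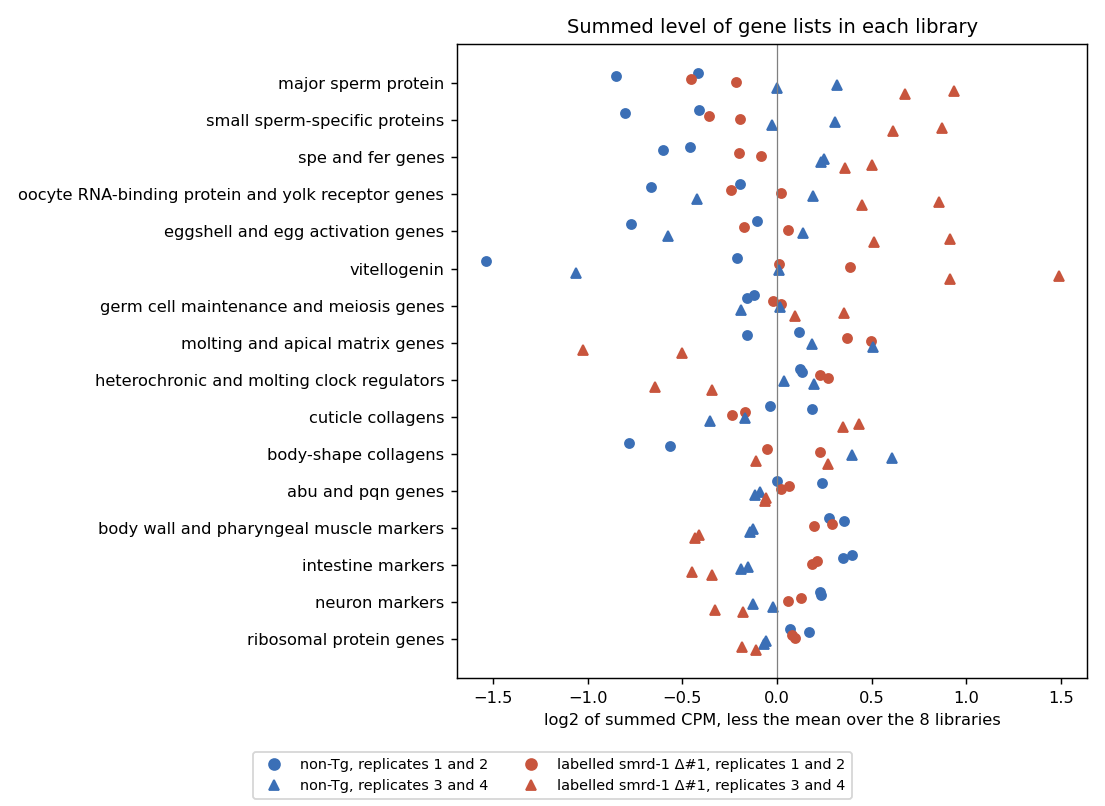
Summed CPM of the tested genes of 16 gene lists on a log2 scale, less the mean of the 8 libraries. Each point is 1 library, colored by labelled genotype, with circles for replicates 1 and 2 and triangles for replicates 3 and 4. Sperm lists have every triangle to the right of every circle and muscle markers every triangle to the left, while for molting genes the 2 red triangles stand alone on the left.

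Heat shock genes of the inducible class were higher in replicates 3 and 4 at low levels. *hsp-16.2* measured 0.430, 0.506, 0.991 and 0.520 CPM against 2.52, 2.47, 3.36 and 3.53 CPM, and its neighbor *hsp-16.41* measured 0.618, 0.141, 0.853 and 0.821 CPM against 2.49, 2.50, 2.93 and 3.46 CPM. These small heat shock proteins had log2 differences of 2.30 and 2.29, and their near copies make the split between members uncertain. *hsp-70*, also inducible, was parted at 1.48. The abundant chaperones *hsp-1* and *hsp-60*, which are made without stress, were lower, at -0.16 and -0.51.

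Set differences were next compared between the labelled genotypes, which asks whether the label made the same difference in both sets. This interaction was tested with edgeR's quasi-likelihood test over 16808 genes, with 2 libraries in each of the 4 combinations and 4 residual degrees of freedom. The test is not independent of the choice of sets, since it uses the spread within sets that were chosen by the values. The common dispersion, edgeR's measure of the spread between libraries, was 0.085 with genotype alone and 0.033 with genotype and set. The p-values may therefore be too small. The interaction test called 699 genes (4.16%), 172 positive (1.02%) and 527 negative (3.14%). A negative value means that the level in libraries labelled *smrd-1 Δ#1*, relative to non-Tg, was lower in replicates 3 and 4 than in replicates 1 and 2. In 480 of the 699 the libraries labelled *smrd-1 Δ#1* were higher than non-Tg in replicates 1 and 2 and lower in replicates 3 and 4, and in 156 the order was the reverse. A further 20 were higher and 43 lower in both sets by unequal amounts.

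The count rested on single libraries. Without non-Tg replicate 4 or without *smrd-1 Δ#1* replicate 2 edgeR called 0 genes, with 1979 and 2157 genes at an unadjusted p under 0.05 and smallest adjusted p-values of 0.0676 and 0.0665, and without *smrd-1 Δ#1* replicate 3 it called 183. Blocked on the replicate number, it called 528 (3.14%), 90 positive (0.535%) and 438 negative (2.61%), of which 451 were among the 699, and DESeq2 called 1273 (7.88%), 458 positive (2.83%) and 815 negative (5.04%). Since the sets were found in these libraries, the p-values measure only the spread between them, which may be technical.

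Molting genes had mostly negative interactions. Of the 26 molting and apical matrix genes 15 were called negative and none positive, beside 3.14% and 1.02% of all genes tested, and the median interaction was a log2 of -1.53. Their summed level was 5159.6, 4264, 6155 and 6715 CPM in replicates 1 and 2 and 5420.1, 6762, 2343 and 3362 CPM in replicates 3 and 4. Non-Tg libraries were somewhat higher in the second set, and those labelled *smrd-1 Δ#1* lay above non-Tg in the first set and below it in the second. With the block 16 were called negative and with DESeq2 19. Without non-Tg replicate 4 or *smrd-1 Δ#1* replicate 2 none was called, and 23 of the 26 still had a value below 0 in each case.

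*noah-1* (I:5874416-5878958), a zona pellucida domain protein that anchors the epidermis to the cuticle, measured 647, 489, 774 and 871 CPM in replicates 1 and 2 and 670.5, 843, 173 and 284 CPM in replicates 3 and 4. Its interaction was -2.26 (SE 0.32, edgeR adjusted p = 0.013). *mlt-11* (V:20667205-20678537), a protease inhibitor required for molting, measured 939.6, 703, 1183 and 1332 CPM against 832, 1006, 204 and 331 CPM, with an interaction of -2.39 (SE 0.31, edgeR adjusted p = 0.013). In both genes the 2 libraries labelled *smrd-1 Δ#1* of replicates 3 and 4 lay below the other 6. *qua-1*, a hedgehog-related protein needed for molting, and *nas-37*, the protease that opens the old cuticle at ecdysis, had interactions of -2.06 and -1.90. *nas-37* measured 88.1, 70.1, 136 and 171 CPM against 162, 204, 79.7 and 111 CPM, so its order by label was reversed between the sets without overlap in either.

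Some molting regulators had the same sign. *lin-42*, the Period homolog whose RNA oscillates with the molts, measured 240.1, 219.7, 345 and 418 CPM against 355, 404, 202 and 268 CPM, with an interaction of -1.42 (SE 0.20, edgeR adjusted p = 0.013). *myrf-1*, a membrane-bound transcription factor, measured 254, 232, 258 and 239.5 CPM against 169.8, 188, 72.5 and 100.2 CPM, with an interaction of -1.08. Together with *grh-1* and *lin-29* they were the 4 of 15 regulators called, all negative, beside 3.14% of all genes tested. *nhr-23* was not called (-0.26, SE 0.11, adjusted p = 0.285).

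Body-shape collagens moved with the molting genes. Of 20 tested, 14 were called negative and none positive, beside 3.14% and 1.02% of all genes tested, with a median interaction of -1.40. Their summed level was 5670.2, 6583, 9384 and 11409 CPM in replicates 1 and 2 and 12828, 14864, 9013 and 11747 CPM in replicates 3 and 4. The non-Tg sum was higher in the second set, whereas the sum in libraries labelled *smrd-1 Δ#1* overlapped between the sets. The block also called 14 and DESeq2 15. Without *smrd-1 Δ#1* replicate 3, 7 were called, and without non-Tg replicate 4 or *smrd-1 Δ#1* replicate 2 none was, with 19 and 20 of the 20 below 0.

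Within this list the collagens of the annular furrows formed a group of closely similar values. *dpy-7* (X:7536467-7537792) measured 183, 143, 233 and 265 CPM in replicates 1 and 2 and 209, 287, 55.9 and 97.6 CPM in replicates 3 and 4, with an interaction of -2.30 (SE 0.36, edgeR adjusted p = 0.016). The other furrow collagens, named after their values were seen, were *dpy-2* (-2.45), *dpy-3* (-2.47), *dpy-8* (-2.59), *dpy-9* (-2.45) and *dpy-10* (-2.53). Each of the 6 was lowest in *smrd-1 Δ#1* replicates 3 and 4. The strut collagens of the adult cuticle, *bli-1* and *bli-2*, had interactions of -2.54 and -2.19 but a different course. *bli-1* (II:10708960-10712156) measured 322, 195, 667 and 885 CPM against 785, 1016, 375 and 554 CPM, so non-Tg was lowest in replicates 1 and 2. A further course was that of *dpy-4* and *dpy-13*, the most abundant of the list after *sqt-3*, whose interactions were -0.41 and -0.48 and did not pass (edgeR adjusted p = 0.502 and 0.445).

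The *col* family differed from these collagens in sign. It held 27 positive and 13 negative calls among 130 genes tested, beside 1.02% and 3.14% of all genes, with a median of 0.83. With the block the counts were 13 and 9, and with DESeq2 44 and 17. Without non-Tg replicate 1 there were 46 positive calls, without *smrd-1 Δ#1* replicates 3 and 4 there were 4 and 17, and without non-Tg replicate 4 or *smrd-1 Δ#1* replicate 2 there were 0. *col-159* (V:13198231-13202177) measured 667, 803, 496 and 393 CPM in replicates 1 and 2 and 329, 282, 639.8 and 645 CPM in replicates 3 and 4, with an interaction of 1.80 (SE 0.19, edgeR adjusted p = 0.013). Its order by label was reversed between the sets. *col-118* had an interaction of 1.12, and *col-176* one of -2.40.

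**Figure D4:**
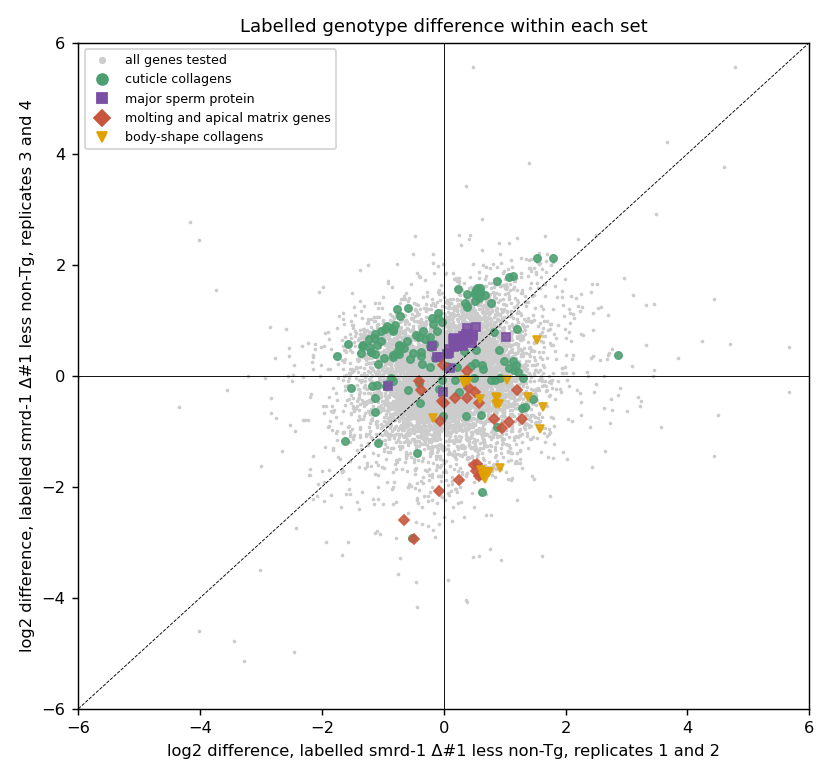
Log2 difference by label (*smrd-1 Δ#1* less non-Tg) in replicates 3 and 4 against that in replicates 1 and 2, for all genes tested (gray) and 4 gene lists; genes on the dashed line have no interaction, and 17 genes lie outside the axis limits of 6. Molting genes and body-shape collagens lie mostly below the line, with list medians of -1.53 and -1.40 for the interaction, and many *col* collagens lie above it, with a median of 0.83.

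None of the 31 major sperm proteins and none of the 17 small sperm-specific genes was called for the interaction by edgeR or DESeq2, and 0 and 1 of them had an unadjusted p under 0.05 in edgeR. Over all 16808 genes tested, 2983 had such an unadjusted p in edgeR, and each count of this kind below is read beside that number. The median interactions of these 2 sperm lists, 0.35 and 0.29, moved to 0.13 to 0.54 and 0.086 to 0.48 when a library was left out, lowest without non-Tg replicate 1 for the major sperm proteins and without non-Tg replicate 4 for the small sperm-specific genes. For *msp-59* the interaction was 0.26 (SE 0.27, edgeR adjusted p = 0.668), and its set difference was 0.94 within non-Tg and 1.20 within the libraries labelled *smrd-1 Δ#1*. Of the 30 *spe* and *fer* genes 11 had an unadjusted p under 0.05. *spe-44* (-0.74) and *fer-1* (-0.86) were called, beside negative calls in 3.14% of all genes tested. In both the libraries labelled *smrd-1 Δ#1* were higher than non-Tg in replicates 1 and 2 and lower in replicates 3 and 4, without overlap. EdgeR called none of the 13 muscle, 15 neuron, 6 vitellogenin, 15 oocyte and 14 eggshell genes, of which 7, 2, 0, 1 and 1 had an unadjusted p under 0.05. DESeq2 and the fit with the block each called 1 oocyte gene and no other gene of these lists. The signs were uneven in most of the lists. The interaction was below 0 in 2 of the 31 major sperm proteins and 5 of the 17 small sperm-specific genes. It was below 0 in 0 of the 15 oocyte, 14 eggshell and 6 vitellogenin genes, in 13 of the 13 muscle markers and in 8 of the 15 neuron markers. Without non-Tg replicate 1 it was below 0 in 3 of the 15 oocyte, 4 of the 14 eggshell and 4 of the 6 vitellogenin genes. In that fit 11 of the 13 muscle and 6 of the 15 neuron markers were below 0, so the signs rested in part on single libraries. A test that was not passed does not show that these differences were equal in both genotypes.

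**Figure D5:**
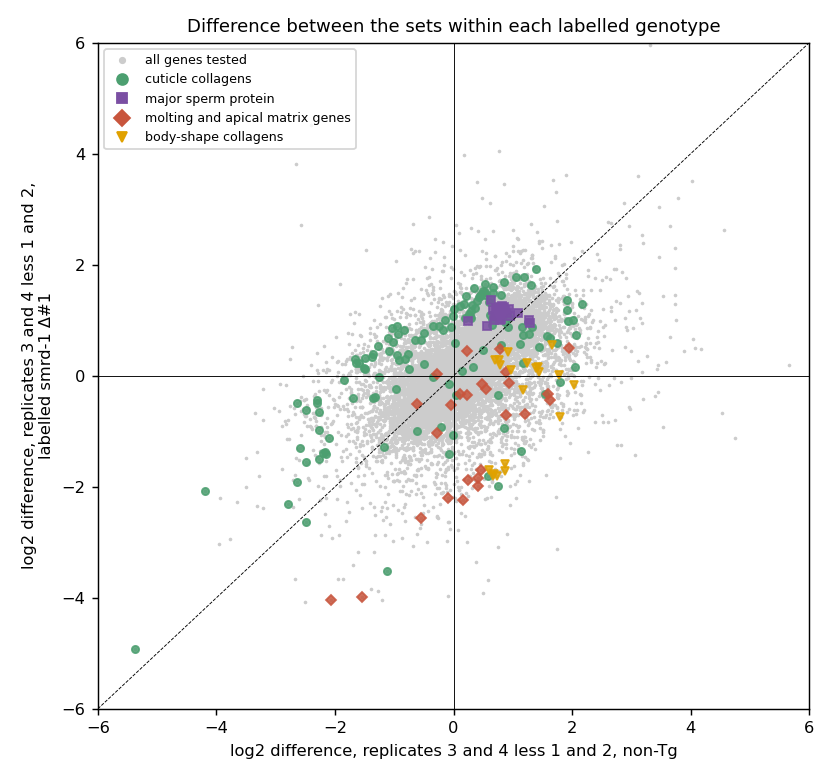
Log2 difference between the sets within the libraries labelled *smrd-1 Δ#1* against that within non-Tg, for all genes tested (gray) and 4 gene lists; genes on the dashed line differ equally in both, and 18 genes lie outside the axis limits of 6. Major sperm proteins lie near the line and mostly above it, with medians of 0.80 within non-Tg and 1.15 within the libraries labelled *smrd-1 Δ#1*. The molting genes have medians of 0.32 and -0.52 in the same order.

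Of the 47 hedgehog-related genes 12 were called negative and 2 positive for the interaction, beside 3.14% and 1.02% of all genes tested, and of the 26 patched-related genes 5 were negative and 1 positive. Without non-Tg replicate 4 or *smrd-1 Δ#1* replicate 2 edgeR called none of either list, and without *smrd-1 Δ#1* replicate 3 it called 7 and 1 negative. Without non-Tg replicate 1 the positive calls were 10 and 3. *grl-7* measured 88.88, 103.9, 200.9 and 263.4 CPM in replicates 1 and 2 and 312.4, 399.2, 241.3 and 324.3 CPM in replicates 3 and 4, with an interaction of -1.60. *ptr-4*, a patched-related protein needed for molting, measured 157, 133, 213 and 238 CPM against 209, 280.4, 108 and 157 CPM, with an interaction of -1.52. Among 33 cuticlin genes 6 were negative and 1 positive, beside the same shares of all genes.

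The 5 negative genes with the smallest p included no molting gene of the list. *idpp-1* (III:740682-742941) measured 57.5, 57.2, 121 and 126 CPM against 105, 119, 31.7 and 46.2 CPM, with an interaction of -2.63 (SE 0.22, edgeR adjusted p = 0.013). *cpr-4*, a secreted cathepsin B-like protease, measured 294, 322, 403 and 444 CPM against 509, 492, 215 and 267 CPM, with an interaction of -1.51. *C34F6.1*, *ZC84.6* and the astacin gene *nas-4* had values of -2.33, -2.32 and -1.96. In each of the 5 the label's order was opposite in the 2 sets, and the libraries of each combination did not overlap with those of the other label in the same set.

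Among positive genes *nlp-27*, a neuropeptide-like gene of the epidermal immune response, measured 45.6, 39.5, 34.0 and 33.6 CPM against 25.3, 23.7, 50.4 and 44.2 CPM, with an interaction of 1.28. *F40H3.2* had an interaction of 2.46. *K11H12.4* stood apart in its course, since it measured 93.3 and 92.5 CPM in non-Tg replicates 1 and 2 and between 18.5 and 30.8 CPM in the other 6 libraries, with an interaction of 1.82 (SE 0.19, edgeR adjusted p = 0.013).

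The label was also tested within each set, 2 libraries against 2, from the same fit as the interaction and with its limits. Both sets shared 1 estimate of the spread. The counts within sets were not repeated with other settings or with a library left out, and the difference between them was not tested. In replicates 1 and 2 edgeR called 966 genes (5.75%), 574 higher (3.42%) and 392 lower (2.33%) in the libraries labelled *smrd-1 Δ#1*. In replicates 3 and 4 it called 1497 (8.91%), 603 higher (3.59%) and 894 lower (5.32%). The median difference by label of the 20 body-shape collagens was 0.80 in the first set and -0.51 in the second, and that of the 26 molting genes was 0.40 and -0.78. That of the 31 major sperm proteins was 0.31 and 0.65. With the set as a covariate over all 8 libraries 929 genes (5.53%) were called, 449 higher (2.67%) and 480 lower (2.86%) in the libraries labelled *smrd-1 Δ#1*, and blocking on the replicate number left 26 calls (0.155%). The p-values behind the 929 calls may be too small, since the set was chosen by the values.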

How the data were processed

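The deposited values are raw counts per gene, made by the authors from paired-end reads with STAR 2.7.11b (build WBcel235) and featureCounts 2.0.1, and cover 46926 genes in 8 libraries. Per the file header no option for pairs, strand or multi-mapping reads was set, so each mate counted as a read, overlapping and antisense genes share reads, and ambiguous reads were dropped. The deposited comparison table holds fold changes and p-values of the authors and was not used here. Symbols and gene positions came from annotation release 115 of the same build, in which 44115 of the 46926 identifiers had a symbol. Columns were mapped to samples by library name.

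Counts were analyzed with edgeR 4.0.16 in R 4.3.3 with TMM normalization, edgeR's expression filter by genotype, and quasi-likelihood fits. The set difference came from a model of genotype and set, the label from the same model, and the interaction from a model with both and their product, with Benjamini-Hochberg adjustment over 16808 genes and a limit of 0.05. Standard errors were the size of the log2 value over the square root of the F statistic. Components used log2 CPM with a prior count of 2. All tests were two-sided. The interaction test and the fitted set difference were tried on simulated data, and the tests of the label, the block and DESeq2 were not. The floor of 3 counts corresponds to 0.0371 to 0.0422 CPM and, like depth in general, covers counting error only. The genes named were the 10 parted genes with the largest difference in each direction at a mean log2 CPM of at least 3, in each of 24 lists the 3 highest and the 2 most different members, 18 landmark genes, and the 5 genes with the smallest interaction p in each direction. Others were chosen after their values were seen. The sets, the gene lists and the named landmarks were chosen with earlier results of these data known.

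The labels number the replicates 1 to 4 in both genotypes without stating a pairing. After removal of the genotype means, same-numbered libraries correlated at 0.357, 0.221, 0.489 and 0.390, and after removal of the means of genotype and set at -0.177 for replicates 1 and 2 and 0.177 for replicates 3 and 4. Non-Tg replicates 1 to 4 reached at most 0.267, 0.516, 0.461 and 0.255 with a differently numbered library labelled *smrd-1 Δ#1* after removal of the genotype means. For replicate 2 that was above the value of its own number, so these correlations do not settle a pairing. The number was used as a block as an alternative. Further alternatives were DESeq2 1.42.0, its size factors in edgeR, other filters, no genotype covariate, a log2 limit of 2, and each library left out in turn.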

Additional observations from a re-analysis of the deposited data

Results flagged for a closer look

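In 1 of 342 groups of 4 libraries tested for a library far from the others, *col-125* in the libraries labelled *smrd-1 Δ#1*, replicate 1 stood apart at 1387 CPM from 945, 856 and 919.6 CPM in replicates 2, 3 and 4. Chance alone gives about 1 in 20.

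The difference by label differed between the sets, by the interaction test, in 699 genes, among them 34 of those named. Positive log2 values were found for *F40H3.2* (2.46), *K11H12.4* (1.82), *col-159* (1.80), *nlp-27* (1.28) and *col-118* (1.12). Among cuticle collagens the negative values were those of *bli-1* (-2.54), *col-176* (-2.40), *dpy-7* (-2.30), *bli-2* (-2.19), *sqt-3* (-1.37), *bli-6* (-1.11), *col-175* (-0.99) and *col-63* (-0.87). Among molting genes, matrix genes and their regulators they were those of *fbn-1* (-2.44), *mlt-11* (-2.39), *noah-1* (-2.26), *qua-1* (-2.06), *dpy-6* (-1.96), *nas-37* (-1.90), *cutl-18* (-1.70), *mlt-10* (-1.46), *lin-42* (-1.42) and *myrf-1* (-1.08). Hedgehog-related and patched-related genes gave *wrt-6* (-1.62), *grl-7* (-1.60), *ptr-4* (-1.52) and *ptc-3* (-0.92). The others were *idpp-1* (-2.63), *C34F6.1* (-2.33), *ZC84.6* (-2.32), *nas-4* (-1.96), *dos-2* (-1.81), *cpr-4* (-1.51) and *dao-4* (-1.49).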

How the results depend on the processing

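The genes parted between the sets numbered 1018 to 1428 higher and 376 to 523 lower when each library was left out, with 523 lower without *smrd-1 Δ#1* replicate 2, and with a log2 limit of 2 they numbered 44 and 48. The medians of the major sperm protein, oocyte, molting and *col* lists kept their sign in each fit that left out a library, at 0.90 to 1.09, 0.50 to 0.78, -0.19 to -0.07 and 0.16 to 0.36. Calls for the label with the set as covariate, 449 higher and 480 lower, became 14 and 12 with the replicate block, 1405 and 1180 with DESeq2, and 989 and 743 with no filter, and ran from 51 to 837 higher and 64 to 476 lower when a library was left out. The interaction, 172 positive and 527 negative, became 90 and 438 with the replicate block, 458 and 815 with DESeq2, and 851 and 1071 with no filter. It ran from 0 to 405 positive and 0 to 592 negative when a library was left out, with 0 without non-Tg replicate 4 or *smrd-1 Δ#1* replicate 2 (edgeR, with 1979 and 2157 genes at an unadjusted p under 0.05) and 183 in all, 24 of them positive, without *smrd-1 Δ#1* replicate 3. Leaving out a library leaves 1 combination of label and set with a single library, which is then assumed to vary like the others. The cause of these shifts was not tested. Of the 34 named genes with an interaction, each kept its call with DESeq2, and *bli-6*, *col-63*, *dao-4*, *dos-2* and *wrt-6* lost it with the block. Of the 17 named genes called for the label, 3 kept the call with the block (*C04G6.2*, *fat-5* and *smrd-1*).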
